A study of Mus musculus with 9 samples.

Results

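The major histocompatibility complex (MHC) genes and the genes of antigen presentation were followed through bulk RNA-seq of mouse cerebral cortex. The set holds the 36 genes whose name begins with H2- and 10 named partners (Cd74, B2m, Tap1, Tap2, Tapbp, Tapbpl, Ciita, Nlrc5, Erap1 and Calr), which makes 46 of the 37893 genes in the table. By role, 2 are classical class I chains, 21 are class Ib genes, 8 are class I accessory genes, 4 are classical class II chains, 7 are class II accessory genes and 4 have other H2- names. Those 4 are H2-K2, H2-Pa and H2-Pb, which are annotated as pseudogenes, and the enzyme gene H2-Ke6. Of the 46, 36 passed the expression filter (0.5 FPKM, fragments scaled to gene length and library size, or more in 3 or more of 9 libraries) that left 17247 genes for testing, and 39 lie on chromosome 17.

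There were 3 groups of 3 mice. IR_Matn3_ko mice carried a knockout of Matn3, which encodes the matrix protein matrilin-3, and underwent tMCAO, a transient block of the middle cerebral artery, for 60 min with 1 day of reperfusion. IR_WT mice were wild type with the same ischemia and reperfusion, and sham_WT mice were wild type with sham surgery. In both ischemic groups the cortex next to the infarct was taken, and in sham_WT mice the cerebral cortex. The labels give neither strain, age nor sex, and no knockout mouse with sham surgery was analysed here, so an effect of genotype without ischemia cannot be told apart from its effect after ischemia.

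MHC class I molecules are carried by nearly all nucleated cells. They hold peptides cut by the proteasome in the cytosol, which the TAP transporter brings into the endoplasmic reticulum, and show them to CD8 T cells. MHC class II molecules are carried mainly by B cells, dendritic cells and macrophages. They hold peptides cut in endosomes and lysosomes, are guarded by the invariant chain Cd74 until a peptide is loaded, and show it to CD4 T cells. In resting brain tissue class II is scarce and is known mostly from cells at the borders of the brain and from activated microglia.

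Total counts per library were 53400376 to 68370527. Matn3, the targeted gene, had 0, 17 and 0 counts in IR_Matn3_ko replicates 1, 2 and 3, against 33, 12 and 48 in IR_WT and 0, 4 and 26 in sham_WT. The library labelled IR_Matn3_ko replicate 2 thus held more Matn3 counts than 1 IR_WT library, and Matn3 was too low to check the labels. Astrocyte markers were high throughout, as in brain tissue, summing to 1950 to 2822 CPM (counts scaled to the library total) in IR_Matn3_ko, 3201 to 3799.5 CPM in IR_WT and 3399.9 to 3960.2 CPM in sham_WT. The libraries also fell into 2 sets that the groups do not explain. Markers of small intestine epithelium, which cortex should lack, summed to 116 to 407 CPM in IR_Matn3_ko and 341 to 505 CPM in IR_WT replicates 2 and 3. They summed to 8.29 CPM in IR_WT replicate 1 and 4.76 to 5.92 CPM in sham_WT, where 9 of the 15 markers were at 0. Below, the second set is the 5 libraries over 10 CPM and the first set the other 4 libraries. Because all IR_Matn3_ko libraries lie in the second set and all sham_WT libraries in the first, set and group can be separated only through the division of IR_WT. Wherever IR_WT replicate 1 is left out below, IR_WT against sham_WT also compares the second set with the first. Ischemia and library set cannot be told apart there.

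The promoters of these genes carry short elements that the MHC is known for, and the sequences shown are those of genes whose levels later part or agree. RefSeq promoter sequence (GRCm38.p6) was used for 29 of the 46 genes. Cd74 is not among the 29, so the counts of matches below leave it out. The window of 150 bases from 180 to 31 bases before the transcript start was read 5′ to 3′ on the gene's strand. Capitals mark 4 strings searched on both strands, chosen after the sequences had been viewed: ATTGG (or CCAAT, its other strand), the box bound by the factor NF-Y; AACNNATG, part of the X box of class II promoters that RFX factors bind; GGGGATTCCC, a kappa B site; and CAGTTTCACTT, an interferon response element. In the printed windows no match overlaps another. Where a gene has more than 1 listed start, one window is printed and a match in any of them was counted. Of 4 class II genes, H2-Aa and H2-Eb1 encode classical chains, while H2-Ob and H2-DMb2 encode chains of the loading helpers; H2-DMb1 is the close copy of H2-DMb2. The class I genes are the classical H2-K1 and H2-D1, the class Ib gene H2-Q7 and B2m, the shared light chain.
H2-Aa (chr17:34287854-34288003, minus strand): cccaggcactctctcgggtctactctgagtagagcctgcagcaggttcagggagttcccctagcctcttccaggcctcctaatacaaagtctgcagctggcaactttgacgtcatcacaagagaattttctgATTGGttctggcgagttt
H2-Eb1 (chr17:34305687-34305836, plus strand): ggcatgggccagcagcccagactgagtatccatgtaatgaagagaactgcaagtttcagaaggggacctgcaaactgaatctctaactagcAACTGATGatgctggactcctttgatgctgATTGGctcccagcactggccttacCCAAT
H2-Ob (chr17:34238725-34238874, plus strand): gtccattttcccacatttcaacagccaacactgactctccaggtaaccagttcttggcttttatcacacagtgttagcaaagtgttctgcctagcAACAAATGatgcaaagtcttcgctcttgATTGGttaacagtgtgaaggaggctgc
H2-DMb2 (chr17:34145069-34145218, plus strand): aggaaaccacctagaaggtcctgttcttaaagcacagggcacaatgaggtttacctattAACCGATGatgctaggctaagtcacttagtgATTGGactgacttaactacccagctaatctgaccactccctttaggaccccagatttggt
H2-DMb1 (chr17:34153011-34153160, plus strand): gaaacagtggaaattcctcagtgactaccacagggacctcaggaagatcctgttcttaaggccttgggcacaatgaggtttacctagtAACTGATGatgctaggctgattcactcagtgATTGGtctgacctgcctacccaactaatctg
H2-K1 (chr17:34000378-34000527, minus strand): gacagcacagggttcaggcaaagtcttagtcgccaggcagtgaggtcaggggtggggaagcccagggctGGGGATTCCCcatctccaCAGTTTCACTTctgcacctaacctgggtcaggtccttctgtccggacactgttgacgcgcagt
H2-D1 (chr17:35262914-35263063, plus strand): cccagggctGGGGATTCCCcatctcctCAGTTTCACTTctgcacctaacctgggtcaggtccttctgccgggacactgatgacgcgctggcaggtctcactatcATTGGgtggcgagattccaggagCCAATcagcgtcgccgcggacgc
H2-Q7 (chr17:35438975-35439124, plus strand): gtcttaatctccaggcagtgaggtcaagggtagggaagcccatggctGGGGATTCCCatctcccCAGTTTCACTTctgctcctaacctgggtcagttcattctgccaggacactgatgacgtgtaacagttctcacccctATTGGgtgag
B2m (chr2:122147507-122147656, plus strand): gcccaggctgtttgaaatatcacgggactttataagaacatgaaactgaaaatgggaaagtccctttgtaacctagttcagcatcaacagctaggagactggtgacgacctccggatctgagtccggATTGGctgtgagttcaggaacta
ATTGG was found in the window of 22 of the 29 genes, against 24.298% of 32851 mouse promoters. AACNNATG stood in 5 of the 29, all of them class II genes (H2-Eb1, H2-Eb2, H2-Ob, H2-DMb1 and H2-DMb2), against 4.633% of promoters. GGGGATTCCC was present in 4 of the 29 (H2-D1, H2-K1, H2-Q6 and H2-Q7) and in 18 promoters in all (0.055%). CAGTTTCACTT was present in 6 of the 29 (H2-D1, H2-K1, H2-Q4, H2-Q6, H2-Q7 and H2-Q10) and in 12 in all (0.037%). GGGGATTCCC and CAGTTTCACTT were copied from the H2-K1 window, so their match there was fixed in advance. The shares over mouse promoters count single windows and not genes. Near-identical gene copies share these strings by descent, so the genes are not independent, and a match is a description of letters, not a measured binding site.

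Class I transcripts stayed within a narrow range over the 9 libraries, while class II transcripts divided them. Summed FPKM of the classical class I chains H2-K1 and H2-D1 was 48.8, 40.1 and 52.0 in IR_Matn3_ko, 44.1, 35.8 and 30.96 in IR_WT, and 32.7, 40.2 and 40.8 in sham_WT. Summed FPKM of the classical class II chains H2-Aa, H2-Ab1 and H2-Eb1 was 3.99, 5.99 and 4.09 in IR_Matn3_ko, 17.6, 2.00 and 2.35 in IR_WT, and 15.4, 21.7 and 21.9 in sham_WT. IR_WT replicate 1 thus had class II levels within the range of sham_WT, and the other 5 ischemic libraries lay far below it.

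The ratio of the class I to the class II sum within a library was 12.2, 6.69 and 12.7 in IR_Matn3_ko, 2.501, 17.9 and 13.2 in IR_WT, and 2.12, 1.85 and 1.86 in sham_WT. On the log2 scale it averaged 3.34 ± 0.52 in IR_Matn3_ko, 3.07 ± 1.53 in IR_WT and 0.96 ± 0.11 in sham_WT (SD, n = 3 each). No test was made on this score. IR_WT minus sham_WT came to 2.11 on the log2 scale, and to 0.37 between the libraries of the first set, where IR_WT replicate 1 stands alone. IR_Matn3_ko minus IR_WT came to 0.27, well within the spread of IR_WT, and without IR_WT replicate 1 it turned to -0.60.

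**Figure D1:**
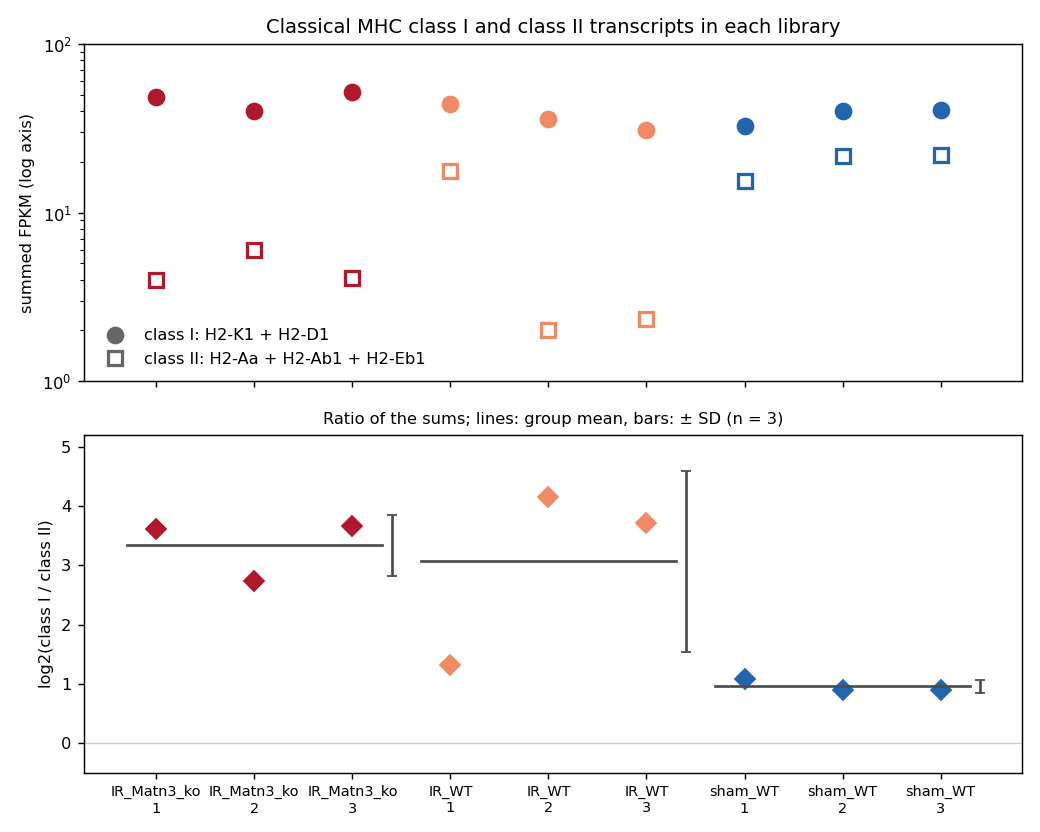
Upper panel: summed FPKM (log axis) of classical class I (filled circles) and class II (open squares) in each library. Lower panel: log2 ratio of the sums, with group means and SD (n = 3). Class I sums lie between 30.96 and 52.0 FPKM, while class II sums are 15.4 FPKM or more in sham_WT and IR_WT replicate 1 and 5.99 FPKM or less in the other 5 libraries.

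The 3 classical class II chains measured well enough to test divided the libraries in the same way. H2-Aa, the alpha chain of the I-A molecule (chromosome 17, 34282744 to 34287823), had 1.08, 1.64 and 1.09 FPKM in IR_Matn3_ko, 5.14, 0.426 and 0.539 FPKM in IR_WT, and 4.53, 6.36 and 5.96 FPKM in sham_WT. H2-Ab1, its beta chain (chromosome 17, 34257689 to 34269419), had 1.28, 2.28 and 1.17 FPKM in IR_Matn3_ko, 4.90, 0.676 and 0.802 FPKM in IR_WT, and 4.69, 6.08 and 6.27 FPKM in sham_WT. In both genes the IR_WT range spanned most of the distance between the lowest and the highest library.

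H2-Eb1, the beta chain of the I-E molecule (chromosome 17, 34305867 to 34316674), had 1.64, 2.08 and 1.83 FPKM in IR_Matn3_ko, 7.60, 0.902 and 1.01 FPKM in IR_WT, and 6.17, 9.25 and 9.69 FPKM in sham_WT. Between IR_WT and sham_WT the log2 fold changes were -1.55 ± 0.78 for H2-Aa, -1.50 ± 0.65 for H2-Ab1 and -1.48 ± 0.69 for H2-Eb1 (SE), and none passed edgeR's quasi-likelihood test (adjusted p = 0.315, 0.245 and 0.276, Benjamini-Hochberg over all genes). Without IR_WT replicate 1 the same 3 genes were lower in IR_WT by 3.64, 3.02 and 3.21 on the log2 scale (adjusted p = 0.000116, 0.000488 and 0.000116). That fit sets second-set IR_WT libraries against first-set sham_WT libraries, so ischemia and library set cannot be told apart in it. With a term for the library set, where the comparison rests on IR_WT replicate 1, the 3 log2 fold changes were -0.21, -0.29 and -0.22. H2-Eb1 overlaps a predicted gene on the other strand, and no source used here says whether strand was used in counting.

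The sign of these chains between IR_Matn3_ko and IR_WT rested on that same IR_WT library. With all 9 libraries the log2 fold changes were -0.72 ± 0.77 for H2-Aa, -0.47 ± 0.65 for H2-Ab1 and -0.82 ± 0.69 for H2-Eb1 (edgeR adjusted p = 0.747, 0.807 and 0.663). Without IR_WT replicate 1 they were 1.37, 1.05 and 0.92 (adjusted p = 0.0598, 0.152 and 0.119). All 3 IR_Matn3_ko libraries then lay above both remaining IR_WT libraries, at 1.08 FPKM or more of H2-Aa against 0.539 FPKM or less.

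Cd74, the invariant chain that occupies the class II groove during transport, was the most abundant class II gene. It had 6.96, 13.1 and 7.76 FPKM in IR_Matn3_ko, 35.9, 5.54 and 5.21 FPKM in IR_WT, and 26.3, 39.0 and 37.6 FPKM in sham_WT. Cd74 followed the chains so closely that its level was 1.74, 2.18 and 1.897 times the classical class II sum in IR_Matn3_ko, 2.04, 2.76 and 2.22 times in IR_WT, and 1.71, 1.798 and 1.71 times in sham_WT. The log2 fold change of Cd74 was -1.23 ± 0.65 between IR_WT and sham_WT (edgeR adjusted p = 0.341) and -2.77 without IR_WT replicate 1 (adjusted p = 0.000394). For IR_Matn3_ko against IR_WT it was -0.79 ± 0.65 (adjusted p = 0.655).

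Ciita, the master coactivator of class II transcription, lay below the filter and was not tested. It had 0.149, 0.187 and 0.199 FPKM in IR_Matn3_ko (97, 134 and 132 counts), 0.470, 0.216 and 0.151 FPKM in IR_WT (288, 153 and 104 counts), and 0.292, 0.625 and 0.311 FPKM in sham_WT (166, 375 and 184 counts). Its lowest first-set library stood above all 5 of the second set. H2-Eb2, a further class II beta chain under the filter, had 0, 0 and 8 counts in IR_Matn3_ko, 89, 0 and 4 in IR_WT, and 82, 100 and 120 in sham_WT.

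The class II loading helpers did not act as a block. H2-DM, which swaps the invariant chain remnant for peptide, is a dimer of H2-DMa with H2-DMb1 or H2-DMb2, and H2-O, a modulator of H2-DM known best from B cells, is a dimer of H2-Oa and H2-Ob. H2-DMa had 3.07, 2.57 and 2.55 FPKM in IR_Matn3_ko, 2.17, 2.17 and 2.71 FPKM in IR_WT, and 1.92, 1.89 and 2.49 FPKM in sham_WT. H2-DMb1 had 1.86, 1.93 and 1.62 FPKM in IR_Matn3_ko, 1.69, 1.32 and 1.51 FPKM in IR_WT, and 0.938, 0.900 and 1.41 FPKM in sham_WT. Neither gene shows the division of the classical chains.

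H2-DMb2, by contrast, had 0.245, 0.190 and 0.193 FPKM in IR_Matn3_ko, 2.10, 0.342 and 0.428 FPKM in IR_WT, and 2.25, 2.16 and 2.72 FPKM in sham_WT. The ratio of H2-DMb2 to its close copy H2-DMb1 was 0.132, 0.0986 and 0.119 in IR_Matn3_ko, 1.24, 0.259 and 0.283 in IR_WT, and 2.398, 2.3995 and 1.93 in sham_WT. Reads may be shared between these near copies, so both levels are uncertain. H2-Ob had 0.0981, 0.0534 and 0.0326 FPKM in IR_Matn3_ko, 1.8975, 0.139 and 0.128 FPKM in IR_WT, and 1.87, 2.17 and 2.10 FPKM in sham_WT.

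H2-Ob and H2-DMb2 were also the only tested class II genes whose IR_Matn3_ko libraries all lay below every IR_WT library, the second set included. Set against H2-Aa, H2-Ob stood at 0.0913, 0.0326 and 0.0299 in IR_Matn3_ko, 0.369, 0.327 and 0.238 in IR_WT, and 0.413, 0.341 and 0.352 in sham_WT. Their log2 fold changes between IR_Matn3_ko and IR_WT were -3.57 ± 1.00 for H2-Ob (edgeR adjusted p = 0.182) and -2.20 ± 0.63 for H2-DMb2 (adjusted p = 0.191). Without IR_WT replicate 1 they were -1.16 and -0.88, with adjusted p = 0.183 and 0.187, while H2-Oa was at 0.58 (adjusted p = 0.649). H2-Oa had 0.196, 0.125 and 0.0706 FPKM in IR_Matn3_ko, 0.839, 0.0697 and 0.0988 FPKM in IR_WT, and 1.17, 1.01 and 1.12 FPKM in sham_WT.

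Marker sums of some other cell types moved with the class II genes. The 12 B cell markers summed to 11.7 to 14.8 CPM in IR_Matn3_ko, to 210 CPM in IR_WT replicate 1 and 15.4 to 25.5 CPM in the other IR_WT libraries, and to 219 to 314 CPM in sham_WT, with all 12 apart between the library sets. Ighm, the immunoglobulin mu chain, made up most of the sum that remained in the second set, with 10.6, 7.16 and 7.92 CPM in IR_Matn3_ko, 96.4, 21.8 and 10.9 CPM in IR_WT, and 122, 173 and 149 CPM in sham_WT. Ms4a1, the CD20 antigen, was near 0 there and had 0.132, 0.150 and 0.0655 CPM in IR_Matn3_ko, 12.8, 0 and 0.185 CPM in IR_WT, and 8.28, 13.3 and 9.78 CPM in sham_WT. The sum of keratinocyte markers, of an epithelium absent from cortex, ran the same way, at 8.25 to 8.88 CPM in IR_Matn3_ko, 6.72 to 54.6 CPM in IR_WT and 62.4 to 131 CPM in sham_WT. Of the 10, 5 were apart between the library sets, while Krt10, Krt1, Lor, Sprr1a and Krt15 overlapped. In all IR_Matn3_ko libraries 4 of the 10 were at 0, of which Krt15 was also at 0 in all IR_WT libraries. T cell markers summed to 8.27 to 16.7 CPM in IR_Matn3_ko, 13.5 to 21.8 CPM in IR_WT and 23.5 to 30.5 CPM in sham_WT. NK cell markers summed to 0.648 to 3.29 CPM over all libraries.

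Myeloid cells can also carry class II, and none of their 4 marker lists summed lower in all second-set than in all first-set libraries. Microglia markers summed to 429 to 630 CPM in IR_Matn3_ko, 459 to 537 CPM in IR_WT and 356 to 368 CPM in sham_WT. Dendritic cell markers summed to 33.8 to 36.1 CPM, 30.0 to 36.6 CPM and 39.5 to 44.1 CPM in the same groups. The sums of each list overlapped between the library sets. The sum of the monocyte and neutrophil markers divided the sets in the opposite direction to class II, at 37.9 to 46.7 CPM in the second set against 28.8 to 31.1 CPM in the first. Only 3 of these 9 markers were apart between the sets. Vcan, the most abundant of the 9, and Cxcr2 were higher in the second set. Ly6c2 was lower, at 0.395 to 0.893 CPM against 1.23 to 1.79 CPM in the first set. Within the second set the 3 classical class II chains and Cd74 were higher in IR_Matn3_ko than in IR_WT replicates 2 and 3, H2-Ob and H2-DMb2 were lower and H2-Oa overlapped. The 11 B cell markers other than Ighm overlapped there, with 4.18, 6.30 and 3.75 CPM in IR_Matn3_ko against 3.67 and 4.57 CPM in those IR_WT libraries. In the same libraries, markers of border-associated macrophages summed to 18.7 to 27.9 CPM in IR_Matn3_ko against 10.1 to 14.0 CPM in those IR_WT libraries. Only Pf4 and F13a1 of them were apart there, each higher in IR_Matn3_ko, while Mrc1, Cd163, Lyve1, Cbr2 and Ms4a7 overlapped. Monocyte and neutrophil markers summed to 42.2 to 46.7 CPM against 37.9 to 39.8 CPM. Of these, only Ccr2, Ly6c2 and Cxcr2 were apart, each higher in IR_Matn3_ko, and the others, Vcan and Plac8 among them, overlapped. The part of these cells in the class II levels was not tested, and in bulk tissue fewer cells of a type and less RNA per cell cannot be told apart.

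**Figure D2:**
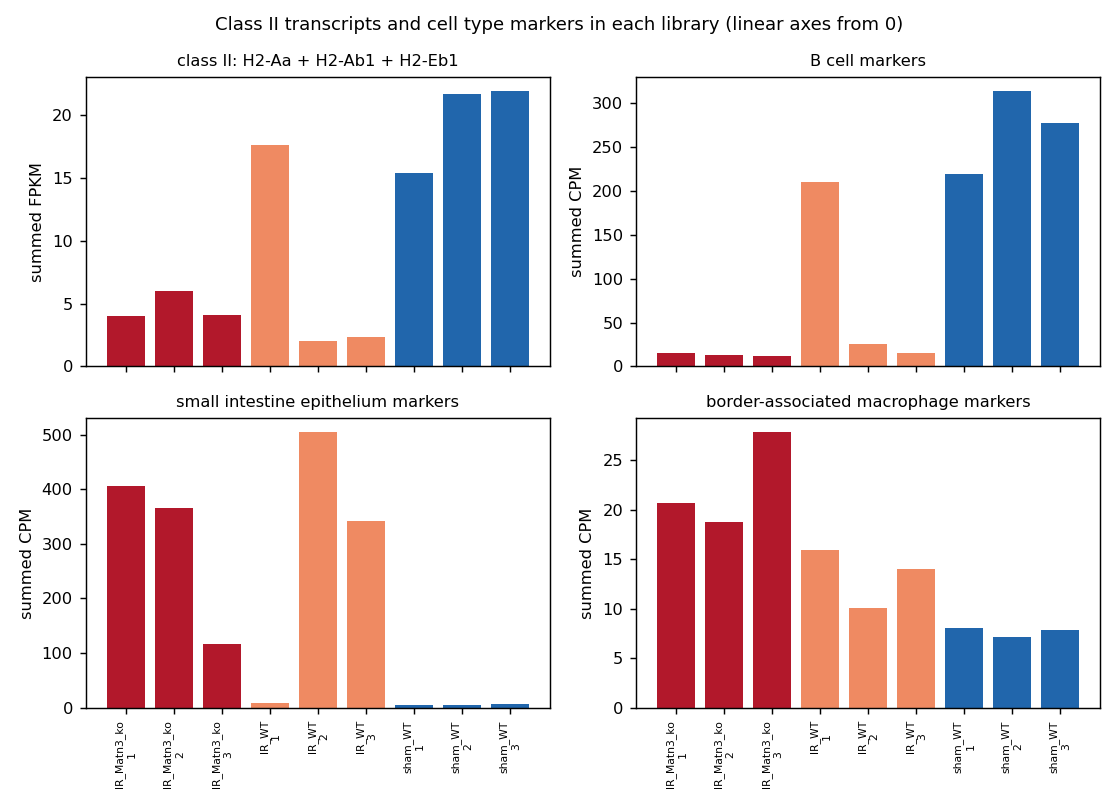
Bars give, for each library, the summed FPKM of H2-Aa, H2-Ab1 and H2-Eb1 and the summed CPM of B cell, small intestine epithelium and border-associated macrophage markers (linear axes from 0). IR_WT replicate 1 looks like sham_WT for class II and for B cell and intestinal markers, at 210 and 8.29 CPM of these markers.

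The classical class I chains and their light chain were abundant in every library. H2-K1 (chromosome 17, 33996017 to 34000347) had 16.8, 15.1 and 16.5 FPKM in IR_Matn3_ko, 17.6, 12.8 and 10.3 FPKM in IR_WT, and 12.8, 17.3 and 17.6 FPKM in sham_WT. H2-D1 (chromosome 17, 35262730 to 35267499) had 32.1, 25.0 and 35.5 FPKM in IR_Matn3_ko, 26.6, 23.0 and 20.7 FPKM in IR_WT, and 19.9, 22.9 and 23.1 FPKM in sham_WT. All 3 groups overlapped in H2-K1, and in H2-D1 IR_Matn3_ko overlapped IR_WT through 1 library of each group.

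B2m encodes beta-2 microglobulin, without which class I chains do not reach the cell surface. It had 141, 147 and 150 FPKM in IR_Matn3_ko, 138, 116 and 102 FPKM in IR_WT, and 106, 114 and 117 FPKM in sham_WT. Its IR_Matn3_ko libraries lay above all IR_WT libraries, by a log2 fold change of 0.27 ± 0.10 that did not pass (edgeR adjusted p = 0.313), while H2-D1 was at 0.36 ± 0.14 (adjusted p = 0.311) and H2-K1 at 0.22 ± 0.18 (adjusted p = 0.661). Without IR_WT replicate 1 the log2 fold change of B2m was 0.40 (adjusted p = 0.0858). Between IR_WT and sham_WT the log2 fold changes were -0.33 ± 0.18 for H2-K1 (adjusted p = 0.371), -0.00 ± 0.14 for H2-D1 (adjusted p = 0.995) and -0.02 ± 0.10 for B2m (adjusted p = 0.948), and the signs of B2m and H2-D1 flip when no scaling factors are used. Reads of the H2 class I genes can fit several near-identical copies, so each level is uncertain, and B2m overlaps Patl2 on the other strand.

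Of the genes that feed peptides to class I, none passed the test in either comparison by edgeR. Tap1, which with Tap2 forms the peptide transporter, had 1.69, 3.05 and 2.20 FPKM in IR_Matn3_ko, 3.27, 1.29 and 1.19 FPKM in IR_WT, and 1.81, 1.69 and 2.17 FPKM in sham_WT. Its log2 fold change was 0.23 ± 0.37 between IR_Matn3_ko and IR_WT (edgeR adjusted p = 0.840) and -0.07 ± 0.37 between IR_WT and sham_WT (adjusted p = 0.941). IR_WT replicate 1 was the highest library, and Tap1 overlaps the proteasome gene Psmb9 on the other strand. Of the other loading genes, Tap2 ranged from 1.99 to 4.04 FPKM over all libraries, Tapbp, the tapasin that bridges TAP and class I, from 6.08 to 10.2 FPKM, its relative Tapbpl from 2.93 to 4.52 FPKM, the trimming peptidase Erap1 from 1.57 to 2.76 FPKM and the chaperone Calr from 70.4 to 115 FPKM.

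Nlrc5, the coactivator of class I genes, was the accessory gene that sided with class II. It had 0.667, 1.08 and 1.10 FPKM in IR_Matn3_ko, 1.72, 0.622 and 0.323 FPKM in IR_WT, and 1.19, 1.48 and 1.31 FPKM in sham_WT. Every second-set library lay below every first-set library, and the margin was small, 1.10 against 1.19 FPKM. The log2 fold change of Nlrc5 was -0.67 ± 0.48 between IR_WT and sham_WT (edgeR adjusted p = 0.496), and without IR_WT replicate 1 Nlrc5 fell by 1.59 (adjusted p = 0.0113). Against IR_WT, IR_Matn3_ko was at 0.06 ± 0.48 (adjusted p = 0.971).

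The class Ib genes, nonclassical relatives of class I, split into 3 patterns. Most kept their level: H2-T23, which encodes the Qa-1 molecule, ranged from 6.10 to 8.69 FPKM over all libraries, H2-T22, a ligand of some gamma delta T cells, from 6.31 to 8.66 FPKM, H2-M3, which presents formylated peptides, from 1.43 to 2.80 FPKM and H2-Q4 from 2.54 to 4.93 FPKM. H2-Q5, H2-Q6 and H2-Q7, neighbours in the Q region, followed class II instead. Their sum was 2.42, 1.905 and 1.96 FPKM in IR_Matn3_ko, 11.6, 1.44 and 1.06 FPKM in IR_WT, and 9.18, 11.9 and 13.5 FPKM in sham_WT.

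H2-Q7, whose product belongs to the Qa-2 antigens, had 0.606, 0.650 and 0.604 FPKM in IR_Matn3_ko, 3.47, 0.493 and 0.328 FPKM in IR_WT, and 2.83, 3.85 and 4.40 FPKM in sham_WT. Its promoter window holds the same kappa B and interferon strings as those of H2-K1 and H2-D1, whose levels did not divide the libraries. The part of these strings in the levels was not tested. Without IR_WT replicate 1, H2-Q5, H2-Q6 and H2-Q7 fell by 3.57, 3.23 and 3.26 on the log2 scale between IR_WT and sham_WT (edgeR adjusted p = 0.00121, 0.000173 and 0.000116). With all libraries H2-Q7 was at -1.46 ± 0.71 (adjusted p = 0.299). H2-T10 also lay lower in the second set, at 0.242 to 0.489 FPKM against 0.567 to 0.713 FPKM in the first.

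H2-Q2 ran the other way. It had 1.22, 1.48 and 1.03 FPKM in IR_Matn3_ko (180, 240 and 153 counts), 0.101, 2.55 and 1.44 FPKM in IR_WT (16, 410 and 222 counts), and no count in any sham_WT library. Against a floor of 3 counts per library it stood above sham_WT by at least 55.9-fold in IR_Matn3_ko, by at least 59.7-fold in IR_WT, where leaving out replicate 2 gave at least 34.2-fold, and by at least 5.08-fold in IR_WT replicate 1 alone. H2-Q2 rose between IR_WT and sham_WT by edgeR (adjusted p = 0.0177), but not by limma (adjusted p = 0.109) or when sham_WT replicate 1, 2 or 3 was left out (adjusted p = 0.0639, 0.0566 and 0.0503). Its call with the library set term rests on IR_WT replicate 1 and its 16 counts, so it is not separate support. H2-Q2 passed the expression filter only through the second set, with at most 0.101 FPKM in the first, so its call is not independent of the filter.

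H2-Q2 in IR_Matn3_ko against IR_WT was at -0.16 ± 0.80 on the log2 scale (edgeR adjusted p = 0.955). The level of H2-Q2 moved with the small intestine markers, such as Sis, the sucrase of the gut brush border, with 12.6, 21.4 and 6.89 CPM in IR_Matn3_ko, 0.516, 54.1 and 29.0 CPM in IR_WT, and 0.281, 0.0703 and 0 CPM in sham_WT. Their part in the level of H2-Q2 was not tested. H2-T3, which encodes the thymus leukemia antigen known from intestinal epithelium, lay under the filter and had 92, 91 and 51 counts in IR_Matn3_ko, 0, 178 and 63 in IR_WT, and none in sham_WT.

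H2-Q1, under the filter, was higher in every second-set library than in every first-set library, as was H2-Q2. It had 93, 133 and 76 counts in IR_Matn3_ko, 45, 157 and 97 in IR_WT, and 0, 0 and 46 in sham_WT. H2-Q10, H2-M2, H2-M9, H2-Q3, H2-Pa and H2-Pb reached at most 58, 24, 18, 4, 2 and 5 counts in any library. Tested class Ib genes not yet described, H2-M5, H2-M10, H2-M6-ps, H2-Bl, H2-T24 and H2-T-ps, stayed between 0.255 and 5.37 FPKM. H2-Ke6, an enzyme gene of the same region, ranged from 1.06 to 2.14 FPKM. H2-K2 was lower in most second-set libraries, with 0.909, 0.535 and 1.66 FPKM in IR_Matn3_ko, 2.04, 0.794 and 0.531 FPKM in IR_WT, and 1.54, 2.51 and 1.99 FPKM in sham_WT. Its log2 fold change between IR_WT and sham_WT was -0.94 ± 0.52 (edgeR adjusted p = 0.366), and -1.70 without IR_WT replicate 1 (adjusted p = 0.0657).

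Across the 36 tested genes, 12 lay lower in all second-set than in all first-set libraries, 1 lay higher and 23 overlapped, against 3.28% of all tested genes lower and 7.53% higher. All 3 tested classical class II chains and 4 of 6 class II accessory genes (Cd74, H2-DMb2, H2-Oa and H2-Ob) were among the 12, as were 4 of 15 class Ib genes and 1 of 8 class I accessory genes. Neither classical class I chain was. The set was defined by intestinal markers and not by these genes, and no test was made between the sets. Among the 12, H2-Oa, H2-Ob, H2-DMb2, H2-Q5 and H2-T10 reached at most 0.489 FPKM in the second set. They passed the filter of 0.5 FPKM only through the first set. H2-Q2 passed it only through the second set, with at most 0.101 FPKM in the first. The counts are therefore not independent of the filter.

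**Figure D3:**
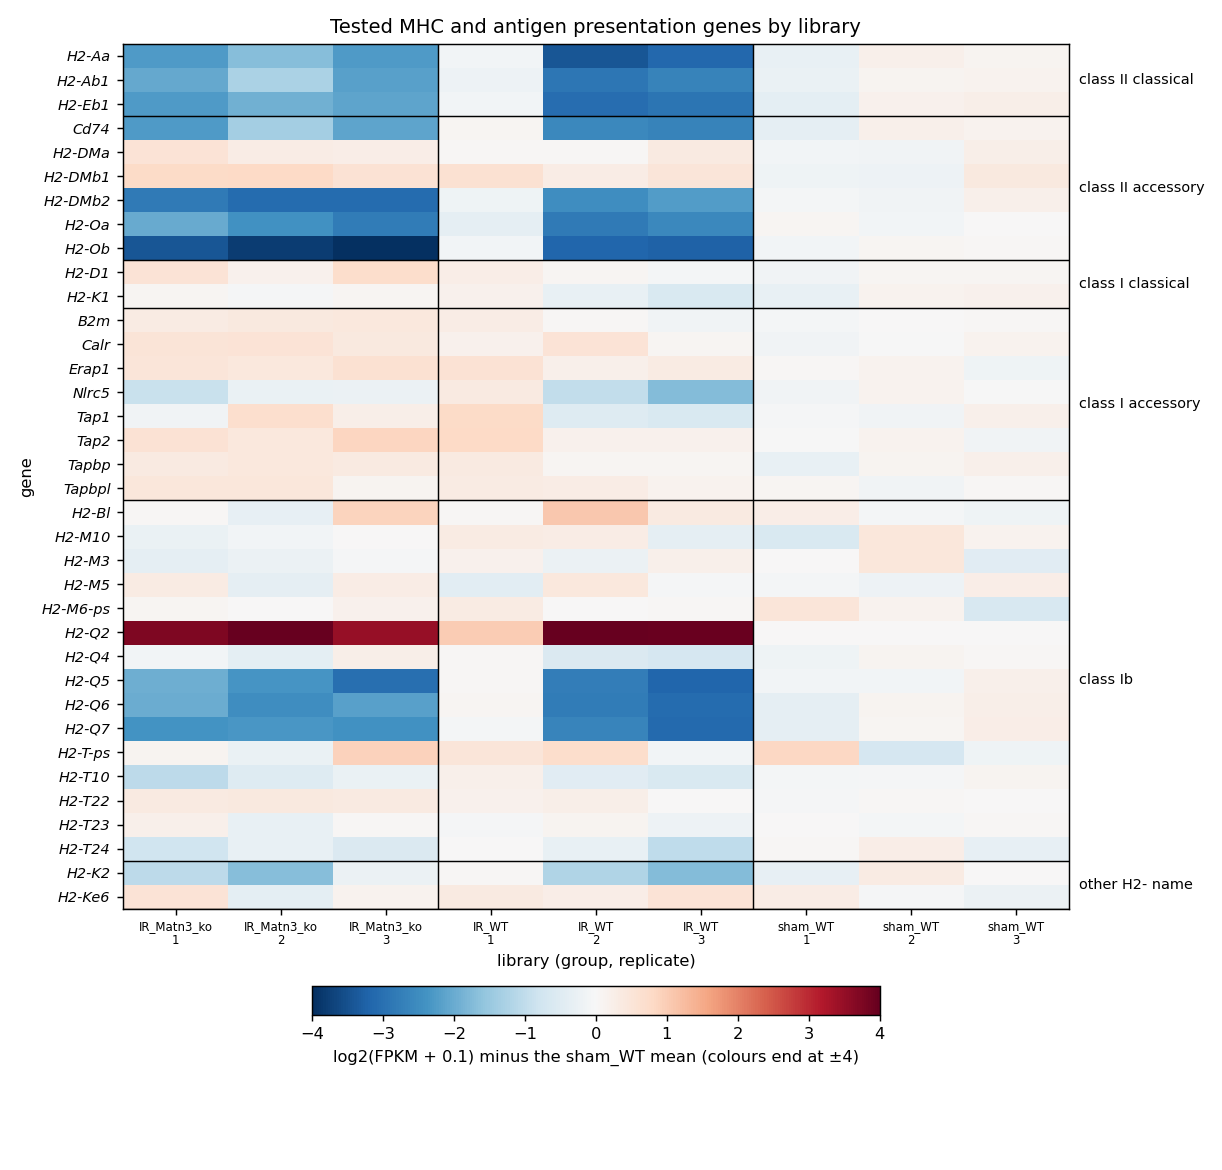
Each row is a tested gene, grouped by role, and each column a library; colour gives log2(FPKM + 0.1) minus the sham_WT mean, with colours ending at ±4. Blue blocks in class II, H2-DMb2, the H2-O chains and H2-Q5 to H2-Q7 mark the 5 second-set libraries, while IR_WT replicate 1 stays pale like sham_WT and H2-Q2 is red.

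The first comparison of the design, IR_WT against sham_WT, asked what ischemia and reperfusion changed. Of the 36 tested genes 1 rose (H2-Q2) and 0 fell by edgeR, against 4.06% of all tested genes called, 2.54% higher and 1.52% lower. At an unadjusted p under 0.05 there were 4 (H2-Ab1, H2-DMb2, H2-Oa and H2-Q2), against 19.2% of all genes. DESeq2 called 1 (H2-Q2), against 9.68%, and gave no adjusted p for 6 of the 36, of which 5 are class II, and limma called 0, against 3.41%. The median log2 fold change was -0.02 over the 25 tested class I genes and -1.48 over the 9 tested class II genes, beside 0.00 over all tested genes.

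Leaving out IR_WT replicate 1 gave 12 called genes, 1 higher (H2-Q2) and 11 lower, against 5.77% of all genes, 3.19% higher and 2.58% lower. That fit sets second-set IR_WT libraries against first-set sham_WT libraries, so these calls cannot tell ischemia from library set. The 11 were H2-Aa, H2-Ab1, H2-Eb1, Cd74, H2-Oa, H2-Ob, H2-DMb2, H2-Q5, H2-Q6, H2-Q7 and Nlrc5, that is 7 of 9 class II and 4 of 25 class I genes. Of these, H2-Oa, H2-Ob, H2-DMb2 and H2-Q5 passed the expression filter only through the first set, and H2-Q2 passed only through the second. Their calls and these counts are therefore not independent of the filter. The class II median was then -3.02 and the class I median -0.15. With the library set term the medians were -0.21 and 0.15, and H2-Q2 alone was called, higher, against 2.36% of all genes (1.7% higher and 0.661% lower). No overlap between the groups was seen in 6 of 36 genes, with Erap1, H2-Q2, Tap2 and Tapbpl higher and H2-DMb2 and H2-Oa lower, against 28.4% of all tested genes (21.6% higher and 6.85% lower).

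The second comparison, IR_Matn3_ko against IR_WT, asked what loss of Matn3 changed after ischemia. No tested gene of the 36, and 0% of all 17247, passed by edgeR. Leaving out the library labelled IR_Matn3_ko replicate 2 also left 0 of the 36, against 0.354% of all genes. At an unadjusted p under 0.05 there were 5 (B2m, H2-D1, H2-DMb2, H2-Ob and H2-T22), against 13.3% of all genes. DESeq2 called 1 (H2-DMb2, lower), against 3.96%, and gave no adjusted p for 6 of the 36, H2-Ob and 4 other class II genes among them, and limma called 0, against 0.22%. The median log2 fold change was 0.06 over class I and -0.79 over class II, and without IR_WT replicate 1 it was 0.23 and 0.58, with 7 of 9 class II genes above 0. None of the 36 was called without that library, against 0.215% of all genes (0.174% higher and 0.0406% lower), nor with the library set term, against 0.197% (0.168% higher and 0.029% lower). In this comparison the set term sets IR_Matn3_ko against IR_WT replicates 2 and 3, so it is not a separate check.

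Groups did not overlap in 5 of 36 genes, with B2m, H2-T22 and Tapbp higher and H2-DMb2 and H2-Ob lower, against 17.6% of all tested genes (11.2% higher and 6.41% lower). H2-T22 had 8.49, 8.66 and 8.48 FPKM in IR_Matn3_ko, 7.32, 7.66 and 6.60 FPKM in IR_WT, and 6.31, 6.72 and 6.60 FPKM in sham_WT, a log2 fold change of 0.22 ± 0.08 between IR_Matn3_ko and IR_WT (edgeR adjusted p = 0.292). H2-T22 overlaps a gene on the other strand. Both comparisons share the IR_WT libraries.

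**Figure D4:**
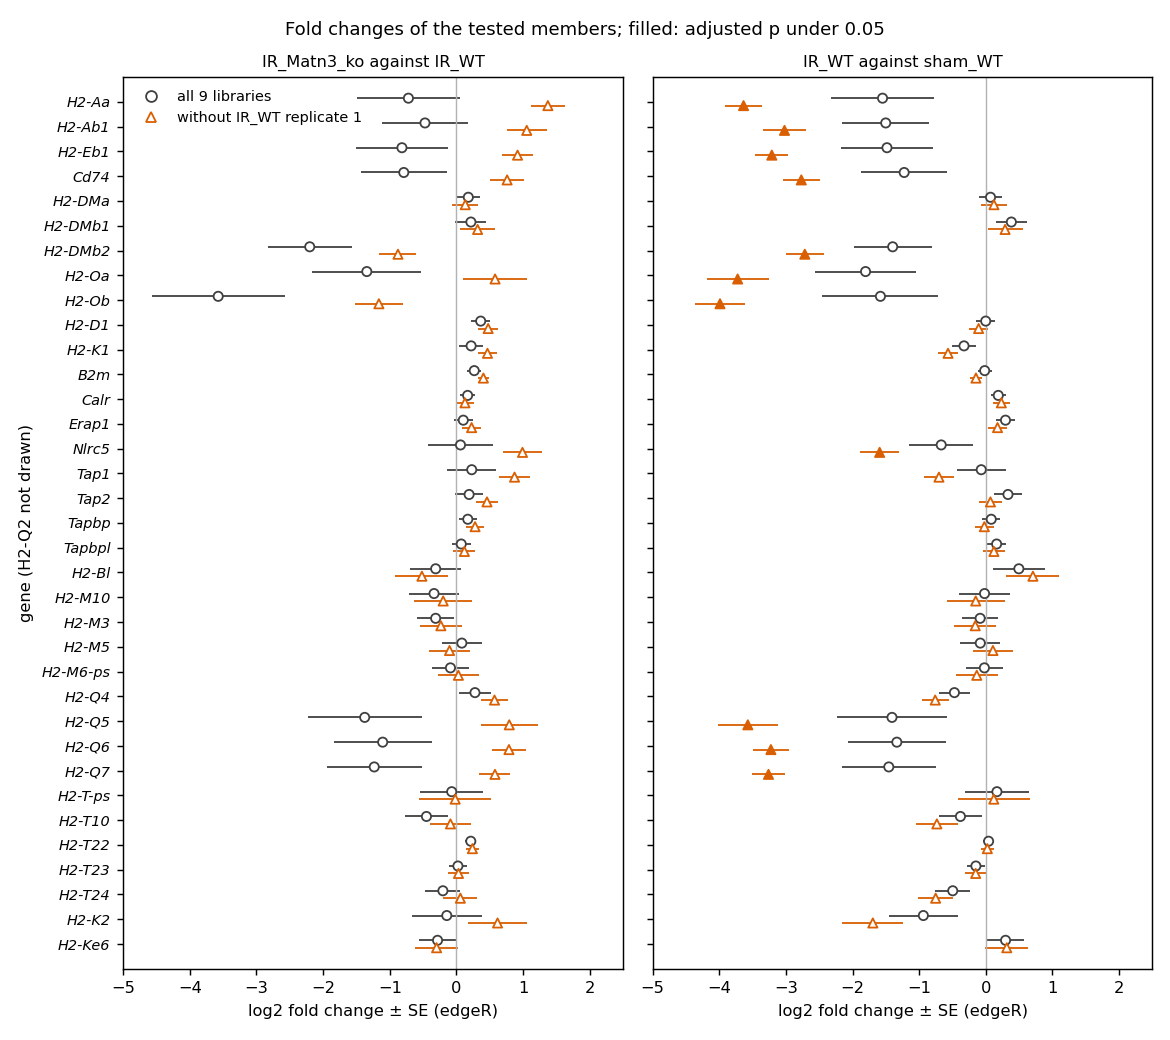
Log2 fold change ± SE of each tested gene except H2-Q2, for IR_Matn3_ko against IR_WT (left) and IR_WT against sham_WT (right), with all 9 libraries (circles) and without IR_WT replicate 1 (triangles); filled symbols have an edgeR adjusted p under 0.05. On the right, 11 genes are filled only without that library, and on the left 5 of the 7 class II genes below 0 with all libraries, that is all but H2-DMb2 and H2-Ob, lie above 0 without it.

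Genes that work beside the MHC were read as lists. In the class II pathway outside the MHC, 5 of 9 tested genes rose between IR_WT and sham_WT and 0 fell by edgeR, against 2.54% of all tested genes higher and 1.52% lower. The 5 were the proteases Ctsl, Ctsb and Lgmn, the thiol reductase Ifi30, which unfolds antigens, and the tetraspanin Cd63. Cd63 had 28.0, 27.9 and 28.9 FPKM in IR_Matn3_ko, 19.3, 16.8 and 18.0 FPKM in IR_WT, and 7.32, 8.74 and 7.97 FPKM in sham_WT, a log2 fold change of 1.08 ± 0.09 between IR_WT and sham_WT (adjusted p = 0.000391). Ifi30 had 10.9, 12.4 and 13.3 FPKM in IR_Matn3_ko, 9.31, 7.43 and 7.52 FPKM in IR_WT, and 3.26, 4.05 and 3.56 FPKM in sham_WT (log2 fold change 1.06 ± 0.16, adjusted p = 0.00737). Neither gene overlapped between any pair of groups or divided IR_WT, unlike H2-Aa. Without IR_WT replicate 1, 4 of the 9 (all of the 5 but Ctsb) still rose, against 3.19% of all genes higher. The list's median log2 fold change was 0.31, beside 0.00 over all tested genes.

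Between IR_Matn3_ko and IR_WT none of these 9 passed by edgeR, with 6 at an unadjusted p under 0.05, all higher, 3 called by DESeq2, 1 by limma and 2 (Ctsl and Cd63) without IR_WT replicate 1. Over all genes the shares were 13.3%, 3.96%, 0.22% and 0.215%. For Cd63 the log2 fold change was 0.61 ± 0.09 (adjusted p = 0.0752), and over the list the median was 0.21. Lysosomal genes of this list are used by many cells for general turnover and not for class II alone.

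The class I pathway outside the MHC (immunoproteasome, proteasome activator and chaperone genes) had 0 of 12 genes called in either comparison by edgeR, DESeq2 or limma, with 3 and 2 at an unadjusted p under 0.05 between IR_WT and sham_WT and between IR_Matn3_ko and IR_WT. Over all tested genes, 19.2% and 13.3% were at an unadjusted p under 0.05 in these comparisons. The called shares were 4.06% and 0% by edgeR, 9.68% and 3.96% by DESeq2, and 3.41% and 0.22% by limma. Its most abundant gene, the chaperone Hspa5, had 86.7, 111 and 88.3 FPKM in IR_Matn3_ko, 64.6, 85.4 and 53.8 FPKM in IR_WT, and 34.6, 38.6 and 58.2 FPKM in sham_WT (IR_WT against sham_WT, log2 fold change 0.53 ± 0.20, adjusted p = 0.188). The MHC promoter factors had 0 of 8 called in either comparison by any of the tools, with 1 and 0 at an unadjusted p under 0.05. Nfyc, a subunit of NF-Y and the most abundant of them, ranged from 10.2 to 15.7 FPKM over all libraries. The median log2 fold change between IR_WT and sham_WT was 0.10 over the class I pathway and 0.01 over the promoter factors, and between IR_Matn3_ko and IR_WT it was 0.12 and -0.03.

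Of 14 tested genes of interferon signalling, 1 rose between IR_WT and sham_WT by edgeR, against 2.54% of all tested genes: Irf9, the DNA-binding part of the complex that type I interferon activates. It had 6.22, 6.45 and 7.26 FPKM in IR_Matn3_ko, 5.70, 5.30 and 3.58 FPKM in IR_WT, and 2.73, 3.11 and 2.47 FPKM in sham_WT (log2 fold change 0.71 ± 0.16, adjusted p = 0.0419), and without IR_WT replicate 1 none of the 14 passed. In IR_Matn3_ko against IR_WT 0 of the 14 passed by edgeR or limma, 1 by DESeq2 (Ifnar2) and 2 at an unadjusted p under 0.05. Co-stimulatory genes had 0 of 7 called by edgeR in either comparison, with 2 at an unadjusted p under 0.05 in each, 1 by DESeq2 between IR_WT and sham_WT (Icam1) and 0 by limma. Over all tested genes the unadjusted shares were 19.2% between IR_WT and sham_WT and 13.3% between IR_Matn3_ko and IR_WT, and DESeq2 called 9.68% and 3.96%. Without IR_WT replicate 1, Cd40, the receptor through which T cells activate antigen presenting cells, fell between IR_WT and sham_WT and was the only one of the 7 called, against 5.77% of all genes. Cd83, a marker of mature antigen presenting cells and the most abundant of the 7, ranged from 6.07 to 7.85 FPKM over all libraries. The median log2 fold change between IR_WT and sham_WT was 0.10 over the interferon genes and -0.14 over the co-stimulatory genes, and between IR_Matn3_ko and IR_WT it was 0.17 and 0.35.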

How the data were processed

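Poly(A)-selected RNA from 9 cortex samples was sequenced as paired reads from dUTP libraries with molecular identifiers, per the labels' protocols. The authors deposited 1 table with raw counts and FPKM values per gene and library, per the file headers. The submitters' processing notes name StringTie 1.3.4d, HISAT2 2.0.4, cutadapt 1.9 and UMI-tools, beside edgeR and DESeq2, and the build GRCh38, which is human. The table's identifiers are mouse: of 37764 found in GENCODE M21 (GRCm38), 88.7% have identical coordinates, so the coordinates printed are the table's and are read as GRCm38. No source used here says if counts are of molecules or reads, or if they use strand. Of the 46 genes, 26 overlap no other gene.

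From the deposited counts, edgeR 4.0.16 (R 4.3.3) was run with TMM scaling on the 17247 genes that reached 0.5 FPKM in 3 or more libraries. All 3 groups entered 1 model with 6 residual degrees of freedom, and a gene was called at a Benjamini-Hochberg adjusted p under 0.05. The SE of a fold change comes from the test. Levels between genes are compared in FPKM, which is per length. CPM values are relative to library totals. A fold against a group without counts uses a floor of 3 counts per library, which covers counting error only. Alternatives were DESeq2 1.42.0, limma 3.58.1 on log2(FPKM + 1), other scalings and filters, a replicate block, a library set term (over 10 summed CPM of small intestine markers; 5 residual degrees of freedom) and leaving out each library. With the set term, IR_WT against sham_WT rests on IR_WT replicate 1, and IR_Matn3_ko against IR_WT rests on IR_WT replicates 2 and 3. The fits were tested on simulated data.

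The genes named were H2-K1, H2-D1, B2m, Tap1, Nlrc5, H2-Aa, H2-Ab1, H2-Eb1, Cd74, Ciita, genes called, and per list up to 2 called genes with the largest change or otherwise the most abundant. Genes named beyond that were chosen after their values were seen. Members, lists and library sets were chosen with earlier results of these data known. The 3 mice of a group are its replicates, and no pair of libraries within a group agreed within counting noise (chi-square 23.8 to 80.9 per degree of freedom).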

Additional observations from a re-analysis of the deposited data

How the results depend on the processing

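The count of called genes between IR_WT and sham_WT (1) became 0 with limma and 0 without sham_WT replicate 1, 2 or 3, with a range of 0 to 12 over single libraries left out, 12 being without IR_WT replicate 1. Between IR_Matn3_ko and IR_WT it was 1 with DESeq2 and 0 without each library. The class I to class II log2 ratio ranged from 1.56 to 2.98 for IR_WT minus sham_WT and from -0.60 to 0.82 for IR_Matn3_ko minus IR_WT over libraries left out. Compared within library sets, an alternative chosen after seeing the data as were those of the pathway lists, it was 0.37 in the first set and -0.60 in the second.

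Signs changed as follows on the log2 scale, none of them past the threshold. Between IR_WT and sham_WT, B2m was 0.0592 without scaling factors, 0.0663 with limma and 0.22 with the set term. H2-D1 was 0.0742 without scaling factors, 0.0022 without the expression filter, 0.0846 with limma and 0.19 with the set term. Tap1 was 0.0076 without scaling factors. With the set term Tap1 was 0.71, Nlrc5 0.30 and H2-K1 0.0612. Between IR_Matn3_ko and IR_WT the set term gave 0.76 for Cd74, 1.37 for H2-Aa, 1.05 for H2-Ab1 and 0.91 for H2-Eb1, and limma gave 0.0745 for H2-Q2. With a single library left out, between IR_WT and sham_WT, B2m ranged from -0.15 to 0.0661, H2-D1 from -0.11 to 0.0635 and Tap1 from -0.70 to 0.17. Between IR_Matn3_ko and IR_WT, Cd74 ranged from -1.20 to 0.76, H2-Aa from -1.21 to 1.37, H2-Ab1 from -0.90 to 1.05, H2-Eb1 from -1.27 to 0.92, H2-Q2 from -0.69 to 0.60, Nlrc5 from -0.33 to 0.99 and Tap1 from -0.0091 to 0.87. The cause was not tested. Of 152 values of named genes under other settings, 134 kept direction and call.

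The labels do not say whether same-numbered samples are paired. The correlation of their deviations was -0.13, -0.02 and 0.08 between IR_WT and sham_WT and -0.24, 0.17 and -0.17 between IR_Matn3_ko and IR_WT. Differently numbered samples reached 0.35 between IR_Matn3_ko and IR_WT, and with 3 samples per group such values cannot settle pairing. With the replicate block 1 and 0 of the 36 genes were called, and H2-Q2 was 0.41 between IR_Matn3_ko and IR_WT.

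With all 3 IR_WT libraries 0 of 9 class II genes were called between IR_WT and sham_WT, and the 7 called without replicate 1 rest on 2 IR_WT libraries. Library set and group cannot be told apart for IR_Matn3_ko and sham_WT, nor between IR_WT and sham_WT once IR_WT replicate 1 is left out. Genes under the filter, Ciita among them, were not tested, and the levels of near-identical H2 copies are uncertain.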
